A study of Mus musculus with 6 samples.

Results

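Tight junctions and desmosomes are the contacts that hold epithelial cells together, and this account follows the genes that encode them in sorted cells of the embryonic mouse trachea. The genes were chosen by symbol from the deposited gene count table: the numbered claudins, Ocln, Marveld1 to Marveld3, F11r, Jam2, Jam3, the zonula occludens genes, Cgn, Cgnl1, the desmogleins and desmocollins, Dsp, Jup, Pkp1 to Pkp4, Ppl, Evpl, Perp and Epcam. The rule found 56 of the 23478 genes in the table. Tracheas were dissected at embryonic day 13.5, dissociated with TrypLE and sorted by flow cytometry into 3 muscle and 3 epithelium libraries. All 6 libraries are labelled control with the genotype Bmp4 f/f; gamma SMA eGFP, that is, both populations carried the floxed Bmp4 allele and the reporter, and the labels name no Cre. Muscle cells were selected by green fluorescence from the gamma smooth muscle actin reporter, so that population holds whatever cells drive the reporter, and epithelial cells were selected with an APC antibody to Epcam. The labels do not say whether libraries numbered 1 to 3 came from separate embryos, litters or pools, so p-values measure the spread between these libraries, which may be technical in part.

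Tight junctions lie nearest the lumen of an epithelium. Claudins form their strands and set which ions and solutes pass between cells, occludin and the other MARVEL proteins and the junctional adhesion molecules (JAMs) join them in the membrane, and zonula occludens and cingulin proteins tie the strands to actin and myosin. Desmosomes are spot-like contacts in which desmogleins and desmocollins bind across the gap, and plakoglobin, plakophilins and desmoplakin anchor them to intermediate filaments, which in simple epithelia are made of keratins. In the trachea these contacts seal the airway lumen, whereas smooth muscle cells are held mainly by adherens junctions and have no tight junction belt. Several members, among them Tjp1, Jup and Jam3, are also known from cells other than epithelia.

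Total counts ran from 11847432 (epithelium 2) to 54848820 (epithelium 1), and levels are given as CPM, counts scaled to 1 common library total after edgeR's TMM adjustment. Marker genes followed the sort labels: the summed CPM of 8 epithelial markers was 1951 to 2755 in epithelium and 11.02 to 21.7 in muscle. That of 8 smooth muscle markers was 16100, 4001 and 17080 in muscle 1, 2 and 3, lowest in muscle 2, and 109.5 to 133.6 in epithelium. The muscle libraries also held cartilage and fibroblast markers (5156 to 7789 summed CPM, against 399.6 to 1920 in epithelium) and skeletal muscle markers (358.9 to 1184 against 2.05 to 175.4). In muscle 2 the cartilage and fibroblast sum (7135) was above the smooth muscle sum. The epithelium libraries held more of the mesothelial list (171.4 to 408.5 summed CPM, against 3.54 to 18.9 in muscle), in which 1 of 6 genes was called (Krt19), and Wt1 averaged 3.00 CPM in epithelium and 4.35 in muscle. They also held more of the oesophageal and squamous list (79.1 to 142.8 against 2.50 to 12.03), in which 2 of 6 tested genes were called (Trp63 and Lypd2). The neural and glial list summed to 133.5 to 155.8 in epithelium and 48.7 to 83.6 in muscle, but its genes were mixed. In it 1 of 10 tested genes was called. Every epithelium library lay above every muscle library in 2 genes, and every muscle library lay above in 2. Whether cells of these kinds were present in either population was not tested. Nor was their part in the epithelium-side or the muscle-side results. The libraries differed in counts on 1449 olfactory and vomeronasal receptor genes, which neither population is known to use: their summed CPM was 6.47, 23.2 and 36.5 in epithelium 1, muscle 3 and muscle 1, and 627, 871 and 1792 in epithelium 3, muscle 2 and epithelium 2. Low values in the last 3 libraries stand on that higher background, and its part in the results was not tested beyond the fits named beside them. In bulk libraries of this kind, fewer cells of a type and less RNA per cell cannot be told apart.

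Of the 56 genes, 53 passed the filter on low counts and were tested with edgeR's quasi-likelihood test over 19375 genes, with Benjamini-Hochberg adjustment and a threshold of 0.05. Of the 53, 26 were called higher in epithelium (49.1%), against a background of 4.11% of all tested genes. A further 5 were called higher in muscle (9.43%), against a background of 6.58%, a share near the background. The remaining 22 were not called. The 3 that failed the filter were Cldn13, Cldn17 and Cldn20, and Cldn17 had no count in any library. The median log2 fold change, epithelium over muscle, was 2.43 over the 53 genes and 0.10 over all tested genes. Epcam was the antigen of the sort and is no finding; without it the counts were 25 and 5 of 52. In 31 of the members every epithelium library lay above every muscle library, and in 5 every muscle library lay above, where the background was 10.5% and 16.4% of all tested genes. Over all genes, 38.5% of calls were higher in epithelium, against 58.0% when libraries were scaled by total count only; under that scaling the members split 27 to 5. No called member changed direction in any of 16 alternative fits, and 17 of the 31 calls held in every one. With the summed receptor-gene level as a covariate, 22 of the 31 calls remained.

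**Figure D1:**
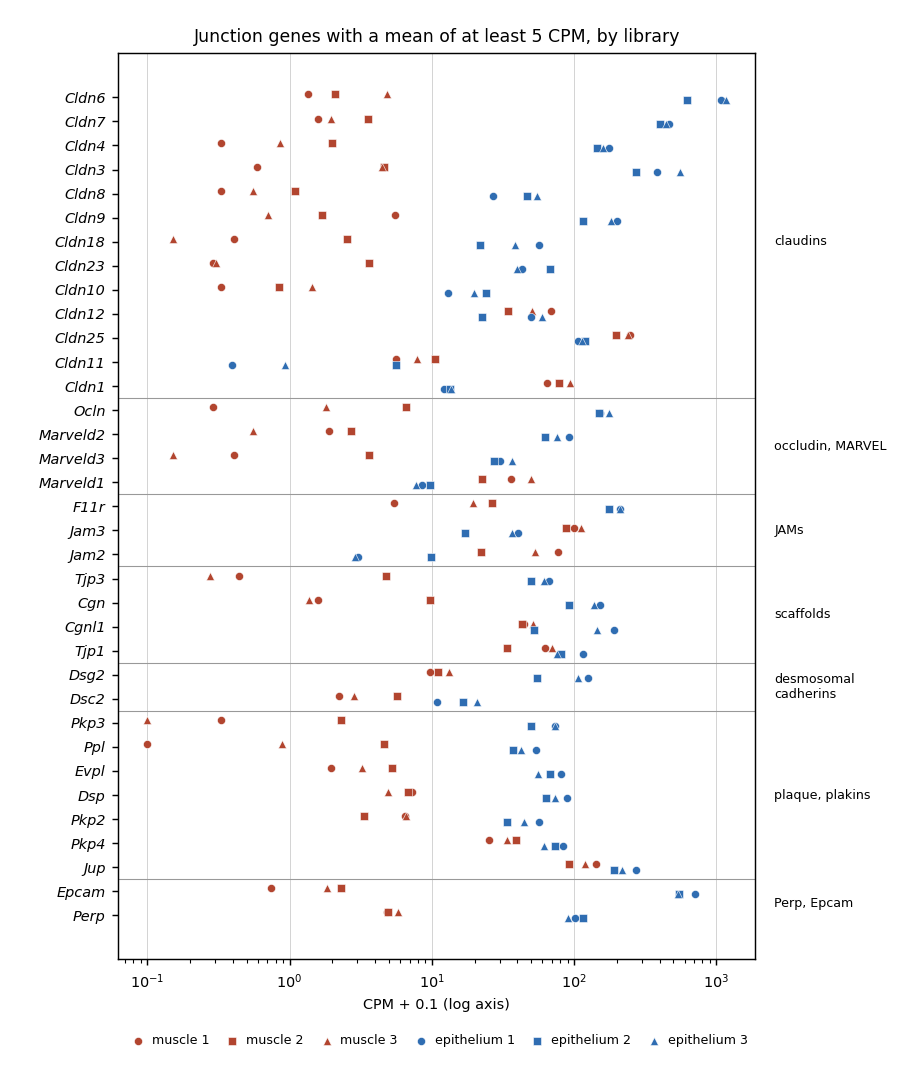
CPM plus 0.1 (log axis) of 35 junction genes with a mean of at least 5 CPM in either population, 1 point per library, coloured by population and shaped by replicate number, grouped by role. Most epithelium points sit to the right of the muscle points, whereas Cldn1, Cldn25, Marveld1, Jam2 and Jam3 lie higher in muscle and Cldn11 and Cldn12 overlap.

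Promoter sequence is shown for 4 genes because the letters CAGGTG, searched on both strands, are those bound by the Snail and Zeb repressors, whose genes are described with the regulators. The 250 bases before the RefSeq start (GRCm38.p6) are given 5′ to 3′ on the gene's strand, with each match in capitals (read as its complement where it lies on the other strand). Cldn4 (chr5:134946935-134947184, minus strand) has a match whose first base is at position -14 from the transcript start, Epcam (chr17:87635729-87635978, plus strand) has matches at -187 and -19, Tjp3 (chr10:81291582-81291831, minus strand) has one at -108, and Cldn1 (chr16:26371840-26372089, minus strand), a claudin called higher in muscle, has none.
Cldn4: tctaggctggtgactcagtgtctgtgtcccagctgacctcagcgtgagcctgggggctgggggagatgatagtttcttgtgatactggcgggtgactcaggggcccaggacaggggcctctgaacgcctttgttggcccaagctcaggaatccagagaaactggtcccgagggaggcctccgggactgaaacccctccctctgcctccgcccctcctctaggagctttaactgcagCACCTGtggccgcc
Epcam: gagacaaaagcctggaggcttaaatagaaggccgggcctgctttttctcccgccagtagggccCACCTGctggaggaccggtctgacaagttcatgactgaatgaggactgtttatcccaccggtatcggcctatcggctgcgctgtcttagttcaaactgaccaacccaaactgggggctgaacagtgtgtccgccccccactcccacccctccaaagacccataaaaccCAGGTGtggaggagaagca
Tjp3: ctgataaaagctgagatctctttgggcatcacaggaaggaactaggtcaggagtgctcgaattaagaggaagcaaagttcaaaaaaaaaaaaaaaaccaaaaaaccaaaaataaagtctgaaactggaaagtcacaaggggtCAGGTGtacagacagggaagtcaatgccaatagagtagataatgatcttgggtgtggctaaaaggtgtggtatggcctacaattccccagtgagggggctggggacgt
Cldn1: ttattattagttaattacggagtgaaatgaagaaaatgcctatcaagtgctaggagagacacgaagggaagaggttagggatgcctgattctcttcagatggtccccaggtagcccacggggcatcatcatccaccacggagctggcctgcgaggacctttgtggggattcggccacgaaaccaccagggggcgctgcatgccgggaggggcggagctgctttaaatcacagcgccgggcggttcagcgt
Windows were held for 31 of the 56 members. In the outermost window of each gene, the letters occurred in 5 of 14 members called higher in epithelium (Cldn4, Cldn6, Epcam, F11r and Tjp3), in 0 of the 17 other members and in 17.1% of 27025 genes. When further start sites of the same genes were added, the counts were 8 of 14 and 1 of 17, with 19.4% of genes. CAGGTG was 1 of 12 letter strings searched, all with the results known. The related string CAGGTA occurred in the Cldn1 window, in 1 of the 14 (F11r), in 2 of the 17 (Cldn1 among them) and in 11.4% of genes. The GC-rich string GGGCGG occurred in 12 of the 14 and 8 of the 17, against 35.4% of genes, and the epithelium-called windows had a median GC content of 60%, against 57.2% for the other members and 52.4% over all windows. The grainyhead-like string AACCGGTT occurred in none of the members and in 0.137% of genes, too few for its absence here to tell anything. The shorter string AACCGG occurred in 3 of the 14 (Cgn, Cldn7 and Ocln), in 1 of the 17 and in 6.4% of genes. The looser AACNGGTT occurred in 1 of the 14 (Cgn), in 1 of the 17 and in 2% of genes. The related ACCGGTT and AAACCGG occurred in none of the members. A match is a string of letters in a window and shows neither binding nor regulation.

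Of 22 tested claudin rows, 9 were called higher in epithelium (40.9%, against 4.11% of all tested genes). A further 2 were called higher in muscle (9.09%, against 6.58%), a share near the background. The rows go by symbol, and RefSeq lists Cldn26, which was not called, as a synonym of Tmem114. Cldn6, a claudin typical of embryonic epithelia, stood at 1077, 619 and 1177 CPM in epithelium 1, 2 and 3 and at 1.25, 2.00 and 4.78 CPM in muscle 1, 2 and 3. Every epithelium library lay far above every muscle library, the ratio of mean CPM was 358, and the log2 fold change was 8.46 ± 0.63 (standard error, n = 3 per group; edgeR adjusted p = 0.000151). Its neighbour Cldn9 lies tail to tail with it on chromosome 17 of GRCm38, 137 bases away. Cldn9 measured 202, 116 and 180.5 CPM in epithelium and 5.44, 1.60 and 0.607 CPM in muscle, with a log2 fold change of 6.04 ± 0.76 (edgeR adjusted p = 0.00161). Here too the populations stood apart. The muscle values decide the exact size of such folds: without muscle 3 the log2 fold change of Cldn6 was 9.20, and without muscle 1 that of Cldn9 was 7.29.

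Cldn3 and Cldn4, which bind the Clostridium perfringens enterotoxin and neighbour each other on chromosome 5, were both higher in epithelium. Cldn3 measured 386, 275 and 555 CPM in epithelium against 0.494, 4.49 and 4.37 in muscle (log2 fold change 7.02 ± 0.78, edgeR adjusted p = 0.000934). Cldn4 measured 175, 144 and 159 CPM against 0.228, 1.90 and 0.758 (7.43 ± 0.64, edgeR adjusted p = 0.00036). The 3 epithelium libraries spread little in Cldn4, with a coefficient of variation of 9.66%, and more in Cldn3 (34.8%). Cldn7, which also sits along the lateral membrane and binds Epcam, varied least over the epithelium libraries of the 26 members called there: it measured 464, 403 and 441 CPM in epithelium, a coefficient of variation of 7.03%, against 1.48, 3.44 and 1.87 in muscle (7.60 ± 0.42, edgeR adjusted p = 9.61e-05). The populations did not overlap in these 3 genes. Without muscle 2 the log2 fold change of Cldn4 was 8.24. Cldn3 overlaps Wbscr25 on the opposite strand, and the library kit does not record strand.

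The remaining epithelium-side claudins had means of 7.30 to 26.97 CPM per kilobase of exon in epithelium, below the 87.9 of Cldn4 and the 556 of Cldn6. Cldn8, known for sealing against cations, measured 26.97, 46.9 and 54.5 CPM in epithelium and 0.228, 0.999 and 0.455 in muscle (6.29 ± 0.56, edgeR adjusted p = 0.000407). Cldn10, a pore-forming claudin, measured 13.01, 23.9 and 19.9 CPM in epithelium against 0.228, 0.749 and 1.34 in muscle (4.59 ± 0.68, edgeR adjusted p = 0.00309). Cldn18, known in lung and stomach, measured 56.8, 21.9 and 38.1 CPM in epithelium against 0.304, 2.45 and 0.0506 in muscle (5.47 ± 1.08, edgeR adjusted p = 0.0127). Cldn23 measured 42.8, 67.3 and 39.4 CPM in epithelium against 0.190, 3.54 and 0.202 in muscle (5.33 ± 1.04, edgeR adjusted p = 0.0119). In all 4, every epithelium library stood above every muscle library. Without muscle 2 the log2 fold change of Cldn8 was 6.90, and without muscle 3 that of Cldn10 was 5.27. Cldn18 and Cldn23 stood highest among muscle libraries in muscle 2, and each lost its call without muscle 1, epithelium 1 or epithelium 3 (adjusted p 0.084, 0.079 and 0.063 for Cldn18, and 0.055, 0.051 and 0.052 for Cldn23). Without muscle 2 their log2 fold changes were 7.88 and 7.94, and without muscle 3 that of Cldn18 was 4.85.

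Cldn1 ran the other way. It measured 64.3, 78.3 and 93.1 CPM in muscle 1, 2 and 3 and 12.03, 13.4 and 13.6 CPM in epithelium 1, 2 and 3, so that every muscle library stood well above every epithelium library, with a ratio of mean CPM of 6.03. Its log2 fold change was -2.59 ± 0.24 (edgeR adjusted p = 0.000468), and the call held in all 16 alternative fits. Cldn1 is best known as the sealing claudin of the epidermis. The 8 epithelial markers stood at a median of 0.322%, 0.772% and 0.696% of their epithelial level in muscle 1, 2 and 3. Their highest values there were 1.53%, 6.25% and 2.23%. The part of other cells in the Cldn1 level was not tested. The row named Cldn25 measured 249, 198 and 239 CPM in muscle and 107, 120.0 and 114 in epithelium (-1.01 ± 0.22, edgeR adjusted p = 0.0199). RefSeq lists that symbol as an older name of both Cldnd1 and Cldn25-ps, neither of which has a row of its own, so which gene was counted is not known. Its call was lost without muscle 1, muscle 3, epithelium 1 or epithelium 3 (adjusted p 0.097, 0.090, 0.098 and 0.12).

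Of the uncalled claudins, 2 reached a mean of 5 CPM. Cldn12 measured 68.8, 34.1 and 50.6 CPM in muscle and 49.9, 22.3 and 59.9 in epithelium, with overlapping groups and no call (-0.21 ± 0.39, edgeR adjusted p = 0.908); its sign turned when libraries were scaled by total count only (0.039). Cldn11, known from myelin and the Sertoli cells of the testis, measured 5.47, 10.5 and 7.74 CPM in muscle and 0.297, 5.48 and 0.826 in epithelium (-1.86 ± 1.05, edgeR adjusted p = 0.394). Its epithelium 2 value reached the lowest muscle value, and without epithelium 2 the log2 fold change was -3.83 with an adjusted p of 0.028. Cldn5, the endothelial claudin, measured 0, 0.999 and 7.13 CPM in muscle and 0.0743, 6.28 and 0.451 in epithelium and was not called (edgeR adjusted p = 0.977). Of 12 endothelial markers, Cd34 and Esam were called higher in muscle and 10 were not called; the list summed to 122.8 to 210.7 CPM in muscle and 18.9 to 102.3 in epithelium. Its defining genes Pecam1 and Cdh5 averaged 4.35 and 1.96 CPM in muscle and 3.76 and 1.85 in epithelium.

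Dividing by exon length allows levels to be compared between genes. The row named Cldn25 has no gene model and stays out of these levels, although its mean of 229 CPM was the highest of any claudin row in muscle. Summed over the 23 claudins with a gene model, the claudin pool was 47.5, 58.2 and 61.4 CPM per kilobase in muscle 1, 2 and 3 and 1554, 1116 and 1725 in epithelium 1, 2 and 3. The means were 55.7 ± 7.27 and 1465 ± 314 CPM per kilobase (SD, n = 3), a 26.3-fold difference. Summed as CPM without length and with the Cldn25 row, the 25 claudin rows stood closer together, at 390.0 ± 29.3 in muscle and 2464 ± 496 in epithelium. In epithelium Cldn6 made up 37.4% ± 4.48 of the pool, Cldn3 21.6% ± 3.42, Cldn7 20.7% ± 3.59, Cldn9 7.80% ± 1.02 and Cldn4 6.14% ± 1.02. Cldn3 and Cldn7 did not differ beyond their spread and changed order between libraries. Cldn9 and Cldn4 did not differ by more than the sum of their SDs. Within each epithelium library Cldn9 lay above Cldn4 (8.98% and 6.21%, 7.18% and 7.12%, 7.25% and 5.08%). Without length Cldn7 came before Cldn3 (19.0% and 17.0%), and Cldn4 lay above Cldn9 in epithelium 2 (8.08% and 6.47%). In muscle Cldn1 made up 43.3% ± 2.98 of the smaller pool and Cldn12 24.2% ± 11.3, both shares without the Cldn25 row.

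**Figure D2:**
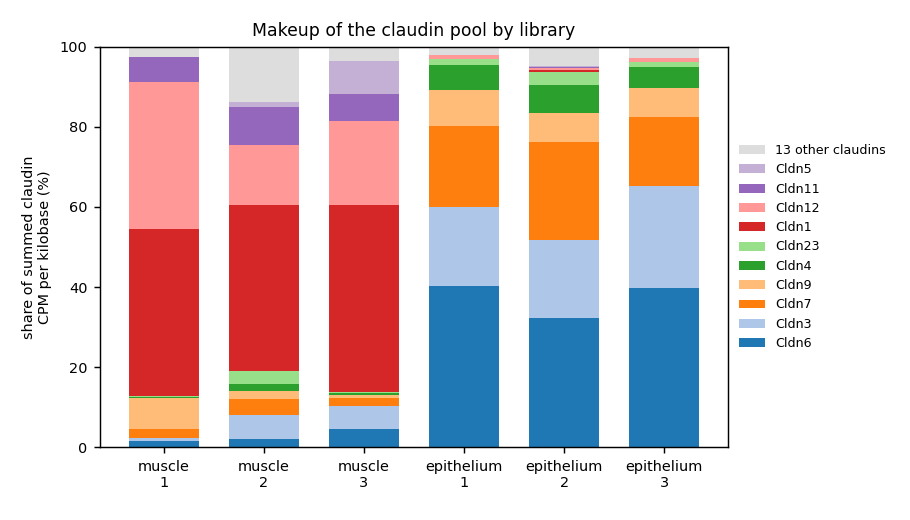
Share of the summed claudin level (percent of CPM per kilobase) taken by each claudin in each of the 6 libraries, as stacked bars. The epithelium bars are filled mostly by Cldn6, Cldn3 and Cldn7, and the muscle bars by Cldn1 and Cldn12.

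All 4 MARVEL-domain genes were called, 3 higher in epithelium and 1 in muscle (75% and 25%, against 4.11% and 6.58% of all tested genes). Ocln, which encodes occludin, measured 151, 149.8 and 177 CPM in epithelium 1, 2 and 3 and 0.190, 6.49 and 1.69 in muscle 1, 2 and 3 (log2 fold change 5.87 ± 0.94, edgeR adjusted p = 0.00492). Marveld2, which encodes tricellulin at the corners where 3 cells meet, measured 92.6, 62.9 and 75.9 CPM in epithelium and 1.79, 2.60 and 0.455 in muscle (5.62 ± 0.58, edgeR adjusted p = 0.000718). Marveld3 measured 30.1, 27.1 and 36.3 CPM in epithelium and 0.304, 3.54 and 0.0506 in muscle (4.64 ± 1.15, edgeR adjusted p = 0.0343). No epithelium library of these 3 genes reached down to a muscle library, but the Marveld3 call was lost without muscle 1, epithelium 1, epithelium 2 or epithelium 3 (adjusted p 0.15, 0.13, 0.081 and 0.15), while without muscle 2, the muscle library with the highest value, its log2 fold change was 7.55 with an adjusted p of 0.00012, and that of Ocln 7.31. Without muscle 3 the Marveld3 value was 4.03. Marveld1, a relative linked to microtubules and the nucleus rather than to tight junctions, measured 35.9, 22.5 and 49.9 CPM in muscle and 8.48, 9.62 and 7.66 in epithelium. Its muscle libraries all lay above its epithelium libraries (-2.07 ± 0.33, edgeR adjusted p = 0.0044), and the call held in every alternative fit.

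The 3 JAM genes split by population. F11r, which encodes JAM-A of epithelial tight junctions, measured 212, 177 and 210.1 CPM in epithelium and 5.32, 26.2 and 19.2 in muscle (3.56 ± 0.52, edgeR adjusted p = 0.00295). Jam2 and Jam3 encode JAM-B and JAM-C, which bind each other and are known from endothelium, muscle precursors and other mesenchymal cells. Jam2 measured 77.5, 22.2 and 53.3 CPM in muscle and 2.92, 9.76 and 2.78 in epithelium (-3.34 ± 0.62, edgeR adjusted p = 0.00934). Jam3 measured 101, 88.4 and 111 CPM in muscle and 40.5, 17.04 and 36.7 in epithelium (-1.67 ± 0.33, edgeR adjusted p = 0.013). Neither gene overlapped between populations. The highest epithelium value of Jam2 was in epithelium 2, the epithelium library with the highest summed cartilage and fibroblast markers (1920 CPM), whose part was not tested, and without epithelium 2 its log2 fold change was -4.08. The Jam2 call was lost with the replicate number as a block (adjusted p 0.068) or with the receptor-gene covariate (0.074), and the Jam3 call without epithelium 3 (0.052). Among the 54 members with an exon length, which leaves out the Cldn25 row, Jam3 had the highest mean level in muscle, at 51.6 CPM per kilobase, ahead of Jup (36.7) and Cldn1 (24.2). The part of the endothelial markers, whose sum was also higher in muscle, in the Jam2 and Jam3 results was not tested.

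Scaffold genes tie the membrane proteins to the cytoskeleton. Tjp1, which encodes ZO-1 and also serves adherens junctions, measured 116, 81.00 and 76.3 CPM in epithelium and 61.96, 33.9 and 69.99 in muscle, a difference without a call (0.72 ± 0.32, edgeR adjusted p = 0.23). Tjp1 did pass with library size only (edgeR adjusted p 0.018), with the receptor-gene covariate (0.026) and with DESeq2 (0.029), but in no fit without 1 library. Tjp3 (ZO-3), the epithelial form, measured 66.8, 49.7 and 61.6 CPM in epithelium and 0.342, 4.64 and 0.177 in muscle (5.18 ± 1.05, edgeR adjusted p = 0.0141), and it overlaps Apba3 on the opposite strand. The ratio of mean CPM was 34.5 for Tjp3 and 1.65 for Tjp1. Cgn, which encodes cingulin, measured 152, 91.4 and 137 CPM in epithelium and 1.48, 9.69 and 1.26 in muscle (4.97 ± 0.80, edgeR adjusted p = 0.00492). Its paralogue Cgnl1 (paracingulin) measured 192, 52.5 and 145 CPM in epithelium and 44.3, 43.3 and 51.6 in muscle and just missed the threshold (1.49 ± 0.42, edgeR adjusted p = 0.0563). These 4 scaffold genes stood higher in every epithelium library than in every muscle library. The Cgnl1 value in epithelium 2 was only slightly above muscle, and without that library the log2 fold change was 1.93 with an adjusted p of 0.0019. Cgnl1 also passed with DESeq2 (adjusted p 0.0015), but not without epithelium 1 (edgeR, 0.15) or epithelium 3 (0.13). The Tjp3 call was lost without muscle 1, epithelium 1 or epithelium 3 (adjusted p 0.073, 0.066 and 0.066). Without muscle 2 the log2 fold changes of Tjp3 and Cgn were 7.86 and 6.52, and without muscle 3 that of Tjp3 was 4.59.

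**Figure D3:**
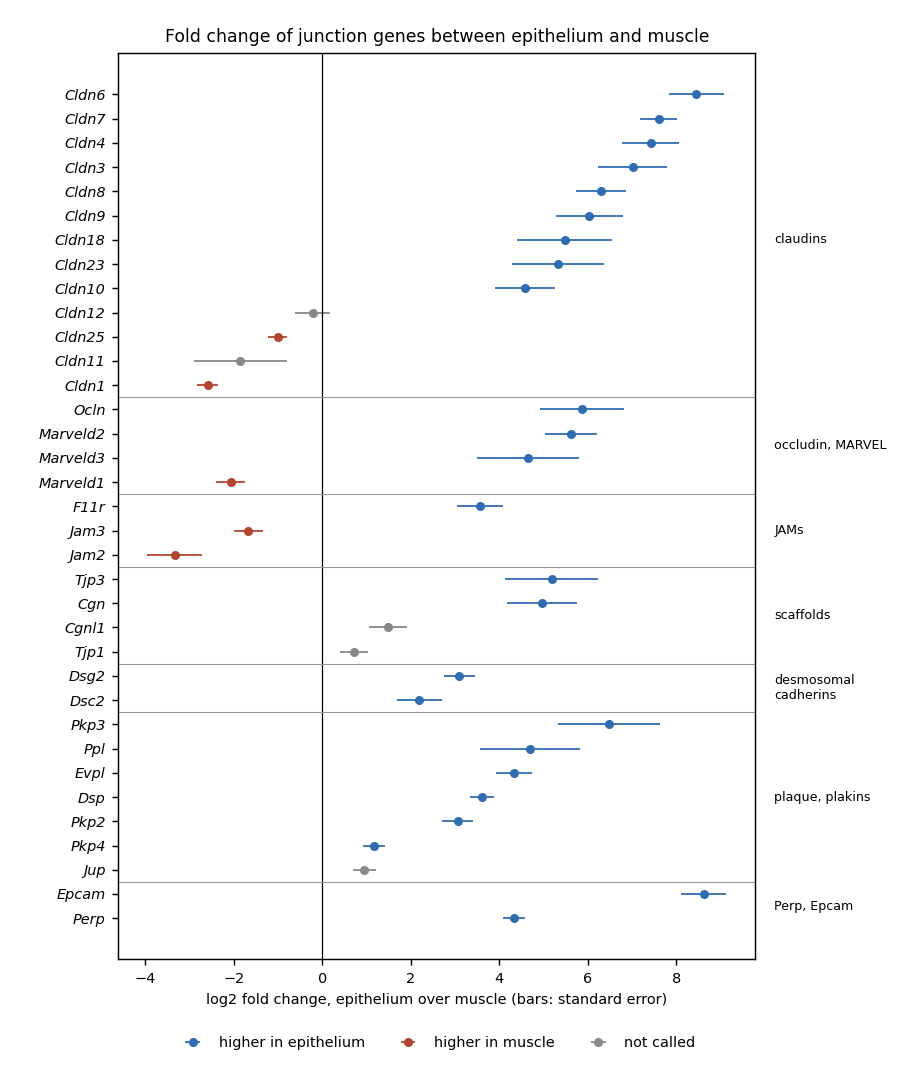
log2 fold change, epithelium over muscle, with its standard error for 35 junction genes with a mean of at least 5 CPM, grouped by role and coloured by call. Values of the genes called higher in epithelium run from 1.16 (Pkp4) to 8.62 (Epcam), the sort antigen, and the muscle-side calls are Cldn1, Cldn25, Marveld1, Jam2 and Jam3.

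Of the 9 desmosomal cadherin genes, 2 were called, both higher in epithelium (22.2%, against 4.11% of all tested genes). Dsg2, the desmoglein of simple epithelia and heart, measured 125, 55.3 and 107 CPM in epithelium 1, 2 and 3 and 9.54, 10.9 and 13.2 in muscle 1, 2 and 3 (3.10 ± 0.35, edgeR adjusted p = 0.000934). Its partner Dsc2 measured 10.9, 16.4 and 20.7 CPM in epithelium and 2.13, 5.59 and 2.75 in muscle (2.19 ± 0.51, edgeR adjusted p = 0.0247). Both genes kept the populations apart, but the Dsc2 call was lost without muscle 1, muscle 3 or epithelium 3 (adjusted p 0.079, 0.089 and 0.16). Dsc3, a cadherin of basal and stratified layers, measured 1.06, 6.82 and 4.28 CPM in epithelium and 2.47, 8.79 and 2.45 in muscle, with overlapping values (edgeR adjusted p = 0.968). Dsg1a, Dsg1b, Dsg1c, Dsg3, Dsg4 and Dsc1, which belong to skin and other stratified epithelia, had group means of 0.366 to 2.68 CPM and no call. Dsg1a, Dsg1b and Dsg1c are near-identical copies, so their counts may be shared among them.

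Of 8 plaque and plakin genes, 6 were called higher in epithelium (75%, against 4.11% of all tested genes). Dsp, which encodes desmoplakin, the link to intermediate filaments, measured 89.4, 63.7 and 73.8 CPM in epithelium and 7.15, 6.69 and 4.83 in muscle (3.61 ± 0.28, edgeR adjusted p = 0.00019). Jup, which encodes plakoglobin and also serves adherens junctions, measured 272, 192 and 219 CPM in epithelium and 142, 92.8 and 119 in muscle and lay at the threshold (0.95 ± 0.26, edgeR adjusted p = 0.0501). Every epithelium library of Jup stood above every muscle library, and it passed in 10 of 16 alternative fits, with an adjusted p of 0.026 without epithelium 2. Evpl and Ppl encode envoplakin and periplakin, partner plakins of epithelial envelopes. Evpl measured 80.3, 67.4 and 55.9 CPM in epithelium and 1.86, 5.14 and 3.11 in muscle (4.34 ± 0.40, edgeR adjusted p = 0.000451). Ppl measured 53.6, 37.4 and 42.03 CPM in epithelium and 0, 4.54 and 0.784 in muscle (4.69 ± 1.12, edgeR adjusted p = 0.0296). No muscle library of either gene reached its epithelium level. The Ppl call was lost without muscle 3 or any 1 of the epithelium libraries (adjusted p 0.18, 0.13, 0.068 and 0.12 in the order muscle 3, epithelium 1, 2 and 3), and its log2 fold change was 6.68 without muscle 2 and 4.09 without muscle 1.

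The 4 plakophilins, armadillo proteins of the plaque, differed among themselves. Pkp3, the plakophilin of most epithelia, measured 72.9, 49.5 and 73.5 CPM in epithelium and 0.228, 2.20 and 0 in muscle (6.48 ± 1.15, edgeR adjusted p = 0.00763). Pkp2, shared with heart muscle, measured 56.9, 33.8 and 44.1 CPM in epithelium and 6.39, 3.25 and 6.47 in muscle (3.06 ± 0.36, edgeR adjusted p = 0.00108). Pkp4, a relative of p120 catenin that is found in adherens junctions too, measured 83.3, 73.9 and 61.9 CPM in epithelium and 25.3, 39.04 and 33.5 in muscle (1.16 ± 0.25, edgeR adjusted p = 0.0186). These 3 genes kept the populations apart, with mean CPM ratios of 80.8, 8.37 and 2.24. The Pkp4 call was lost without muscle 1, muscle 3 or epithelium 1 (adjusted p 0.086, 0.066 and 0.072) and the Pkp3 call without muscle 1 (0.059). Pkp3, with no count in muscle 3, had a log2 fold change of 9.35 without muscle 2 and 5.79 without muscle 3. Pkp1, the plakophilin of stratified layers, measured 0.372, 11.6 and 2.03 CPM in epithelium and 0.684, 5.19 and 0.708 in muscle with overlapping groups (edgeR adjusted p = 0.845). Its highest values were in epithelium 2 and muscle 2, which also had the most receptor-gene counts.

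Perp, a membrane protein of desmosomes under the control of p53 and p63, measured 101, 116 and 91.1 CPM in epithelium and 4.75, 4.84 and 5.66 in muscle. Its libraries varied little within each population (4.33 ± 0.25, edgeR adjusted p = 9.61e-05), and the call held in every fit. Epcam, which the sort selected on, measured 710.1, 543 and 542 CPM in epithelium and 0.646, 2.20 and 1.74 in muscle, which describes the gate.

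The epithelium-called members varied unequally over the epithelium libraries. Their coefficient of variation over the 3 libraries ran from 7.03% to 44.9%, with a median of 20.1%. Epithelium 2 was lowest in 18 of the 26 and epithelium 1 was highest in 16. Among the epithelium libraries, epithelium 2 had the fewest counts and the lowest epithelial marker sum (1951 CPM, against 2755 and 2512). It also had the highest cartilage and fibroblast sum (1920) and receptor-gene sum (1792). The part of each in this pattern was not tested. In muscle the same 26 genes stood at a median of 1.07%, 6.70% and 1.06% of their mean epithelial level in muscle 1, 2 and 3, highest in muscle 2. Among the muscle libraries, muscle 2 had the lowest smooth muscle marker sum (4001 CPM) and the highest receptor-gene sum (871). The part of either in that level was not tested. The 20 members under 5 CPM in both populations were also uneven: their summed CPM was 4.98, 44.5 and 12.8 in muscle 1, 2 and 3 and 5.06, 72.3 and 32.3 in epithelium 1, 2 and 3. Those sums were highest in the 3 libraries with the most receptor-gene counts. Of the 17 low members tested by edgeR, 0 were called and 1 had an unadjusted p under 0.05, Cldn22, which overlaps Wwc2 on the opposite strand; DESeq2 called it (adjusted p 0.010).

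Genes that work with these junctions were read from 6 lists, 114 of whose 116 genes were tested. Of them 41 were called higher in epithelium (36.0%) and 19 in muscle (16.7%), against 4.11% and 6.58% of all tested genes, the background for each list here. The tight junction partners gave 12 and 6 of 38, with a median log2 fold change of 0.21. Those higher in epithelium included Crb3, a polarity protein of the apical membrane (7.99), and Ildr1, an angulin of cell corners (5.62). On the muscle side stood Esam (-2.80), Clmp (-2.17) and Tbx2 (-1.93). Esam and Clmp encode adhesion molecules related to the JAMs. Tbx2 encodes a transcription factor rather than a junction protein, and the list's muscle-side count of 6 includes it. Those 3 muscle-side calls were lost without muscle 3 (adjusted p 0.077, 0.15 and 0.070) and without epithelium 3 (0.15, 0.16 and 0.11). The Esam call was also lost without muscle 1 (0.079), the Tbx2 call without epithelium 1 (0.051) and the Clmp call without muscle 1, muscle 2 or epithelium 1 (0.12, 0.068 and 0.096). All 3 were lost too with the replicate block (0.066, 0.083 and 0.067), with DESeq2 size factors (0.071, 0.096 and 0.056) and with library size only (0.11, 0.16 and 0.098). Without epithelium 2 the log2 fold changes of Esam and Clmp were -3.97 and -3.21. The Ildr1 call was lost without epithelium 3 (0.052), while without muscle 2 its log2 fold change was 8.11 and that of Crb3 was 8.87. Of 20 adherens junction genes, 2 were called higher in epithelium and 5 in muscle, with a median log2 fold change of 0.11. Cdh1, which encodes E-cadherin, measured 734, 631 and 687 CPM in epithelium and 2.28, 6.34 and 2.02 in muscle (7.61 ± 0.54, edgeR adjusted p = 0.000117), and Pvrl4, the row for nectin 4, had a log2 fold change of 4.13. Cdh6 (-3.53), Cdh11 (-3.23) and Vcl, which encodes vinculin (-2.52), led the muscle side. Without muscle 2 the values of Cdh1 and Pvrl4 were 8.30 and 5.58, and without epithelium 2 that of Cdh6 was -4.28.

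The filaments to which desmosomes attach also differed by population. Of 15 keratin, intermediate filament and plakin genes, 7 were called higher in epithelium and 2 in muscle, with a median log2 fold change of 3.92. Krt8, a keratin of simple epithelia, measured 684, 541 and 788 CPM in epithelium and 2.09, 2.60 and 5.64 in muscle (7.59 ± 0.49, edgeR adjusted p = 9.61e-05). Krt7 and Krt15 had log2 fold changes of 7.73 and 8.15, which were 8.56 and 7.38 without muscle 3, and that of Krt15 was 8.79 without muscle 2. The Krt15 call was lost with limma-voom (adjusted p 0.11). Des and Vim, the desmin and vimentin genes of muscle and mesenchyme, had log2 fold changes of -6.13 and -2.86. Hemidesmosome genes, which anchor cells to the basement membrane, gave 3 and 0 of 9 (median 1.09), among them Lamb3 (4.19) and Itga6 (1.99). The membrane protease system that cleaves Epcam and so affects claudin 7 gave 6 and 0 of 7 (median 6.28), led by Prss8 (prostasin, 7.54), Spint1 (an inhibitor of matriptase, 7.25) and Tmprss2 (6.71). Without muscle 2 the values of Prss8 and Tmprss2 were 8.64 and 8.39, and without muscle 1 that of Tmprss2 was 6.10. The Tmprss2 call was lost with the receptor-gene covariate (adjusted p 0.059).

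Transcription factors that act on junction genes in other epithelia were called on both sides, 11 higher in epithelium and 6 in muscle of 27, with a median log2 fold change of 1.83. Grhl2, an activator of Cldn4 and Cdh1, measured 187, 125 and 163 CPM in epithelium 1, 2 and 3 and 0.608, 3.94 and 0.986 in muscle 1, 2 and 3 (6.47 ± 0.69, edgeR adjusted p = 0.000782). Foxa2 measured 367, 167 and 324 CPM in epithelium and 0.228, 0.799 and 1.42 in muscle (8.40 ± 0.67, edgeR adjusted p = 0.000205). Ovol2, a repressor of Zeb1, measured 15.5, 12.8 and 15.5 CPM in epithelium and 0.0760, 0.250 and 0.0506 in muscle (6.90 ± 0.79, edgeR adjusted p = 0.000999). The repressors of epithelial genes stood opposite. Zeb2 measured 231, 142 and 175 CPM in muscle and 3.38, 22.5 and 9.24 in epithelium (-3.98 ± 0.63, edgeR adjusted p = 0.00423). Zeb1 measured 159, 59.7 and 116 CPM in muscle and 2.17, 15.6 and 5.11 in epithelium (-3.90 ± 0.71, edgeR adjusted p = 0.00883). Snai2 measured 189, 133 and 156 CPM in muscle and 10.2, 18.98 and 5.75 in epithelium (-3.79 ± 0.44, edgeR adjusted p = 0.00108). Neither side overlapped the other in any of these 6 genes, and in epithelium the 3 repressors were highest in epithelium 2. The Zeb1 call was lost without epithelium 3 (adjusted p 0.058), with the replicate block (0.055) and with the receptor-gene covariate (0.062). Without epithelium 2 the log2 fold changes of Zeb1 and Zeb2 were -4.92 and -4.86, without muscle 2 those of Grhl2 and Ovol2 were 7.59 and 7.79, and without muscle 3 that of Foxa2 was 9.16.

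**Figure D4:**
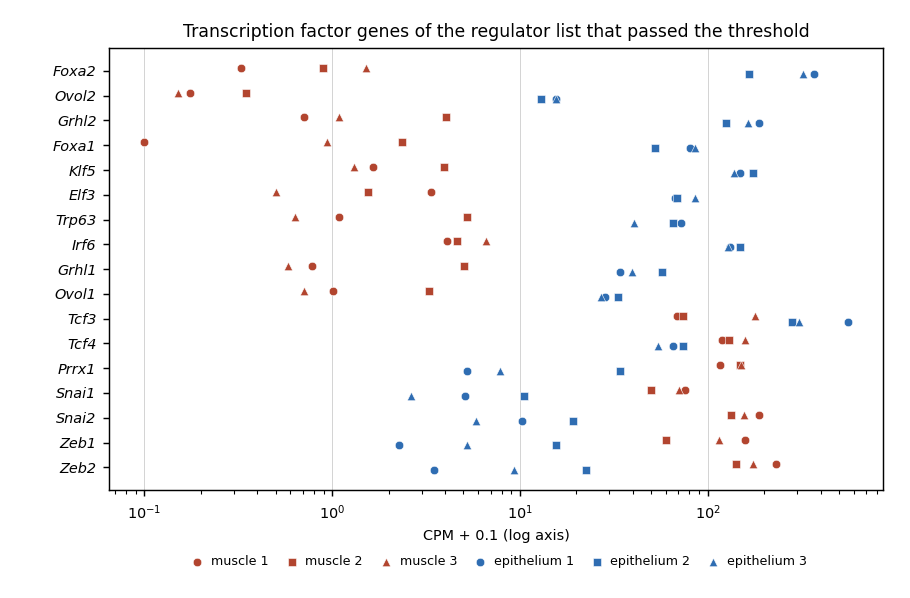
CPM plus 0.1 (log axis) of the 17 transcription factor genes of the regulator list that passed the threshold, 1 point per library. The 11 epithelium-side genes and the 6 muscle-side genes each show the 2 populations apart.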

How the data were processed

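The authors deposited 1 table of raw read counts per gene for the 6 libraries, made with SMART-Seq v4 and Nextera XT per the labels' protocols. Per the submitters' processing notes, Trim Galore, Bowtie2, Cufflinks, DESeq and build mm10 were used, with no roles or versions given there. The deposited counts are whole numbers without strand or molecular identifiers, so PCR copies are included. Small counts were mostly even (73.8% to 79.6% of counts from 1 to 19), and counting error alone is not the limit on precision.

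The counts were tested with edgeR 4.0.16 in R 4.3.3 (TMM, filterByExpr by group, robust quasi-likelihood fit, 2 groups, two-sided, Benjamini-Hochberg over all tested genes, threshold 0.05). The fit was also run on simulated counts drawn with its own dispersions. Those counts held no uneven background between libraries, so that run cannot tell how such a background affects the calls. Fold changes are epithelium over muscle, and the standard error comes from the test statistic. limma 3.58.1 (voom) and DESeq2 1.42.0 were alternatives, beside other scalings, filters, a replicate block, covariates and left-out libraries. Exon lengths came from the GENCODE M21 gene models (GRCm38). Members and gene lists were chosen with earlier results of these data known. Members with a mean of at least 5 CPM in either population are described with every library's value. Of each partner list, the up to 3 called genes of each direction that changed most are named, if their mean log2 CPM reached 2. Cldn5, Cldn22, Dsc3, Pkp1 and the endothelial genes fall outside these rules and were chosen after their values were seen. A few genes that these rules would name are not reported here.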

Additional observations from a re-analysis of the deposited data

How the results depend on the processing

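Under the 16 alternative fits the members called higher in epithelium numbered 18 to 30 and those higher in muscle 3 to 6, against 26 and 5; at an adjusted p under 0.01 they numbered 18 and 3. The higher-in-epithelium range without 1 library was 18 to 26 and the higher-in-muscle range was 3 to 6. Over all genes, the number higher in epithelium (797) was 1439 with library size only, which moved the median log2 fold change of all genes from 0.10 to 0.33, 1219 with a covariate for background counts, 1582 with DESeq2, 404 at the stricter threshold, and 514 to 918 without 1 library. The number higher in muscle (1274) was 2054 with the header identifier as a batch term, 1949 with DESeq2, 579 at the stricter threshold, and 570 to 1655 without 1 library. The partner and regulator genes higher in muscle (19) numbered 12 with library size only, 9 at the stricter threshold, and 9 to 20 without 1 library. The cause of these shifts was not tested. Identifiers in the column headers, read as dates, put both libraries numbered 2 apart from the other 4. What the identifiers mark is not stated. With the other 4 libraries alone all 31 member calls remained and Cgnl1, Cldn11 and Jup were added. With only muscle 1, muscle 3 and epithelium 1, a choice made after seeing the data, the 31 calls remained and Tjp1 was added too, the lone epithelium library being assumed to vary like muscle. With the covariate for background counts Cgn, Cldn18, Cldn23, Jam2, Marveld3, Ocln, Pkp3, Ppl and Tjp3 lost their calls. Marveld3 lost its call with DESeq2 size factors, Marveld3 and Ppl with library size only, and Marveld3, Ppl and Tjp3 without the low-count filter. The labels state no pairing, so the numbers were not taken as pairs. Deviations of same-numbered libraries correlated at 0.592, 0.729 and -0.569 over 19375 genes. Over the 4123 genes with higher levels the values were 0.172, 0.151 and -0.172. These values cannot decide whether libraries were paired, because differently numbered ones correlated similarly (0.692 for muscle 3 with epithelium 1, 0.628 for muscle 2 with epithelium 3). With the replicate number as a block 27 of the 31 calls remained, Cldn18, Jam2, Marveld3 and Ppl were lost and Jup was added. Uncalled log2 fold changes turned sign: Cldn12 was 0.039 with library size only and -0.444 to 0.155 without 1 library. Cldn5 was 0.301 with library size only, 0.833 with the replicate block and -3.352 to 2.159 without 1 library. Dsc3 was 0.018 with library size only, 0.194 in the 4 libraries not numbered 2 and -0.829 to 0.702 without 1 library. Pkp1 was -0.717 in the 3 low-background libraries, -0.232 with limma-voom and -0.953 to 2.721 without 1 library. Of the 20 members under 5 CPM, 17 were tested and Cldn22 alone was called in any of the 16 alternative fits, with the covariate for background counts and with DESeq2.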
